A study of Mus musculus with 10 samples.

Results

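The collagen genes of mouse ear skin were taken as all gene symbols of the form Col, number, a, number, with the 6 cartilage collagens (Col2a1, Col9a1, Col9a2, Col9a3, Col11a1 and Col11a2) left out. This gave 38 of the 41388 genes counted, out of 44 symbols of that form. Each gene encodes 1 chain of a trimeric protein of the extracellular matrix. They were sorted by textbook class into fibrillar collagens, which form the tensile fibrils of the dermis, the type IV chains of the basement membrane network, beaded filaments (type VI), the anchoring fibril (type VII), short-chain networks (types VIII and X), FACIT collagens, which sit on the surface of fibrils, multiplexins of basement membrane zones (types XV and XVIII), transmembrane collagens, and 2 others (Col26a1 and Col28a1).

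RNA of whole ear was sequenced from 10 C57Bl/6 mice, 1 library each. The 4 Littermate mice are labelled WT and the 6 Experimental mice NaV1.8+ Jak1F/F, whereas the series text calls the latter NaV1.8+ Il4raF/F, so the floxed gene is not settled by the labels. Per the series text both groups received MC903 (calipotriol, a vitamin D analogue that inflames mouse skin) on the skin at 1 nM daily for 12 days, so that no library is from untreated skin. NaV1.8 is a sodium channel of sensory neurons. The labels give no age or sex and do not name the form of the NaV1.8 allele. Dermal collagen is made mainly by fibroblasts, type IV and XVIII chains also by endothelial, mural and epithelial cells, and type XVII by basal keratinocytes. In RNA from whole tissue, fewer cells of a type and less RNA per cell cannot be told apart.

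Total counts were 12865459 to 14324433 in Littermate and 11520348 to 41935183 in Experimental libraries. On the first principal component, Experimental 6 (-9.84) lay with the Littermate libraries (-9.25 to -5.64) and apart from the other Experimental libraries (4.43 to 17.7). On the second, Littermate 2 (-14.2) and Experimental 5 (-18.7) stood apart. The mean log2 level of 4 Y-linked genes was 5.82 to 6.18 in Littermate and 6.11 to 6.36 in Experimental libraries. Each of the 10 mice thus carried a Y chromosome. The summed level of 10 fibroblast markers was 2914 to 3488 CPM (counts scaled to a library total of 1000000, with TMM factors) in Littermate and 2742 to 3354 in Experimental libraries, that of 6 blood endothelial markers 281 to 394 and 252 to 326, that of 7 basal keratinocyte markers 20403 to 23461 and 17401 to 23794, and that of the chondrocyte list 244 to 350 and 197 to 363. For 6 pericyte and smooth muscle markers it was 646 to 876 and 586 to 750, for 6 Schwann cell markers 269 to 349 and 206 to 289, and for 7 skeletal muscle markers 2866 to 6173 and 3174 to 4269. None of these lists had a matched gene at 0 in all libraries, and their medians of log2 fold change were, in this order, -0.02, -0.07, 0.03, -0.09, -0.08, -0.17 and -0.27. The 1 marker in any of them that passed the test was Sox9, a transcription factor of chondrocytes and hair follicles (-0.73, edgeR, adjusted p = 0.0033). The part of these differences in the results below was not tested.

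Across the 10 libraries the collagen genes spanned a wide range of levels per length, which is the scale used to compare genes (normalized CPM per kilobase of exon). Col3a1, the homotrimeric type III chain, was highest at 484, followed by Col1a1 at 274, Col17a1 at 200, Col1a2 at 134 and Col6a1 at 123. Next came Col6a3 (80.8), Col4a1 (58.3), Col5a2 (57.97), Col8a1 (45.05) and Col6a2 (43.2). This order depends on the lengths in the files, which count all annotated exon bases of a gene. Without division by length, Col1a2 (means of 1915 CPM in Littermate and 1442 CPM in Experimental mice) lay above Col17a1 (1189 and 1132 CPM). Col19a1 and Col26a1 were lowest, at 3 to 17 reads per library, and were not kept by the filter on low counts. Their levels were 0.759 ± 0.372 and 0.696 ± 0.215 CPM in Littermate (SD, n = 4) and 0.491 ± 0.207 and 0.502 ± 0.243 CPM in Experimental mice (SD, n = 6). The other 36 genes were tested.

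**Figure D1:**
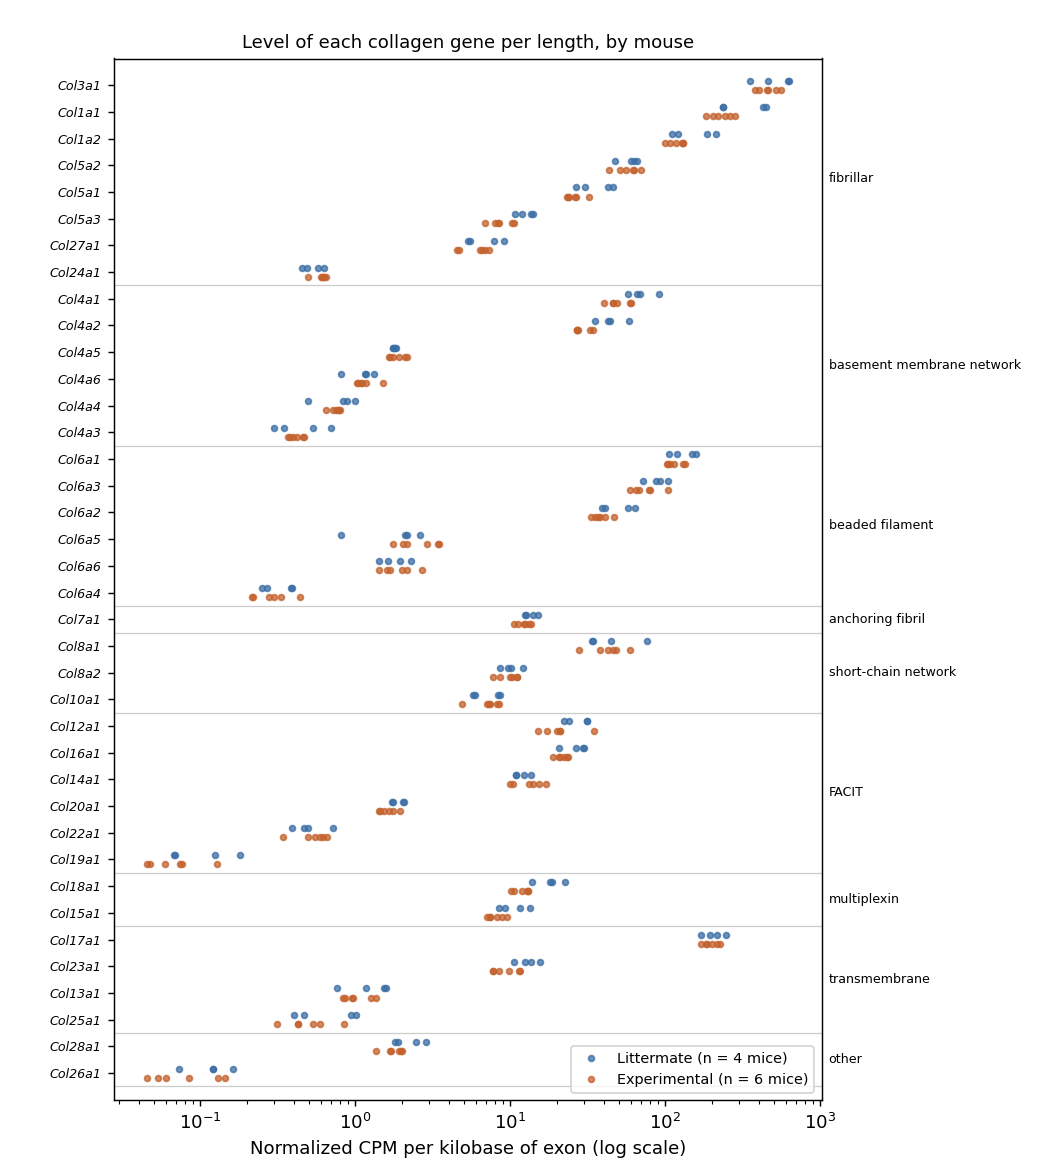
Normalized CPM per kilobase of exon (log scale) of the 38 collagen genes by class; each point is 1 mouse, Littermate (n = 4) above and Experimental (n = 6) below on each line. Col3a1 lies at the top of the range, with a mean of 484, and the 2 untested genes Col19a1 and Col26a1 near the bottom.

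The 38 genes together took 1.85%, 1.38%, 1.16% and 1.87% of all counts in Littermate 1 to 4. In the Experimental libraries they took 1.15% to 1.53%, with a median of 1.30%. The Littermate libraries thus fell into a higher pair (1 and 4) and a lower pair (2 and 3), and the lower pair lay within the Experimental range. The group means were 1.57% ± 0.35 (SD, n = 4) and 1.31% ± 0.13 (SD, n = 6), a difference of -0.25 percentage points that ran from -0.39 without Littermate 3 to -0.15 without Littermate 4. Col3a1 alone held a median of 33.4% of the collagen counts, Col1a1 12.1% and Col1a2 11.2%. The 3 together held 53.8% to 62.0%, so the summed share is mainly a measure of these genes.

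In the comparison of Experimental with Littermate mice, no collagen gene passed an adjusted p of 0.05 over all genes (0 of 36 tested; edgeR), where 3 of 16830 genes passed (0.0178%). At an unadjusted p under 0.05, 12 of 36 were lower in Experimental mice (33.3%) and 0 were higher, against 8.1% of all genes lower and 3.65% higher. The log2 fold change was negative in 28 of 36 (77.8%), against 50.4% of all genes. Its median was -0.20 over the collagen genes and -0.0013 over all genes. In 3 collagen genes (8.33%) all 6 Experimental mice lay below all 4 Littermate mice, which held for 1.35% of all genes, and in 0 did all lie above, which held for 0.761% of all genes. The 36 genes are not independent of each other, since many are made by the same cells. DESeq2 gave 4 collagen calls, Col18a1, Col4a2, Col5a3 and Col4a1, all lower, beside 227 calls among all genes (1.35%). With no filter on low counts Col18a1 passed, beside 78 calls in all (0.264%).

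The calls depended on which libraries were included. Without Littermate 2, Col4a2 and Col18a1 passed, all genes giving 343 calls (2.01%). Without Littermate 3 the same 2 genes passed, with 8 calls in all (0.0471%). Leaving out any 1 of the other 8 libraries gave 0 collagen calls. With Littermate 2 and Experimental 6 both left out, a choice made after seeing the data, 7 collagen genes passed, all lower (Col4a2, Col5a3, Col12a1, Col15a1, Col18a1, Col5a1 and Col6a2), beside 563 calls among all genes (3.34%).

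**Figure D2:**
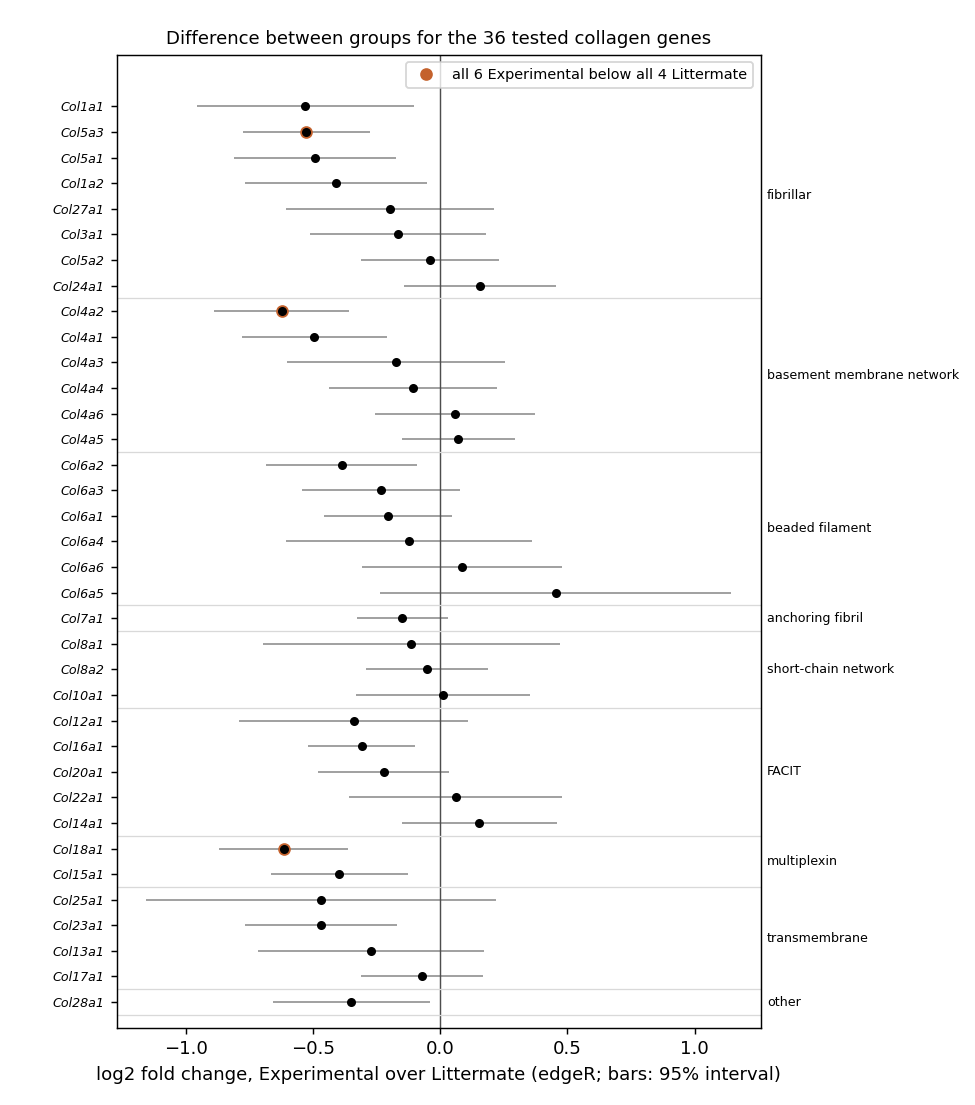
Log2 fold change, Experimental over Littermate, of the 36 tested collagen genes by class, with 95% confidence intervals from edgeR; orange rings mark the genes in which all 6 Experimental mice lay below all 4 Littermate mice. The 3 ringed genes are Col5a3, Col4a2 and Col18a1, and most points lie left of 0.

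The lowest p-values were those of Col18a1, Col4a2 and Col5a3. Col18a1 (ENSMUSG00000001435, chr10:77052178-77166548, minus strand, mm10) encodes the type XVIII chain, a heparan sulphate proteoglycan core of basement membranes that releases endostatin. It was at 126, 130, 96.9 and 158 CPM in Littermate 1 to 4 and at 70.6 to 91.5 CPM in Experimental mice, with a median of 87.0. Every Experimental mouse lay below every Littermate mouse. The log2 fold change was -0.62 (SE 0.12, edgeR, adjusted p = 0.0834), with a 95% interval of -0.87 to -0.36. Col15a1 (ENSMUSG00000028339, chr4:47208161-47313167), the other multiplexin, was at 73.3, 53.7, 58.2 and 85.2 CPM in Littermate and at 45.2 to 60.6 CPM (median 49.4) in Experimental mice. Here the Experimental values reached above Littermate 2 and 3 (-0.40, SE 0.12, adjusted p = 0.242).

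Col4a1 and Col4a2 encode the alpha 1 and alpha 2 chains that join into the ubiquitous type IV collagen, and lie head to head with transcripts that overlap by 22 exon bases. Col4a2 (ENSMUSG00000031503, chr8:11312805-11449287, plus strand) was at 290, 284, 232 and 388 CPM in Littermate and at 179 to 227 CPM (median 180) in Experimental mice, without overlap. Its log2 fold change was -0.62 (SE 0.12, edgeR, adjusted p = 0.0834; 95% interval -0.89 to -0.36). Col4a1 (ENSMUSG00000031502, chr8:11198423-11312826, minus strand) was at 467, 449, 393 and 619 CPM in Littermate and at 276 to 410 CPM (median 324) in Experimental mice. Of the 6 Experimental mice, 4 lay below the lowest Littermate mouse, Littermate 3 (-0.49, SE 0.13, adjusted p = 0.167). The chains of the other type IV networks, at 4.13 to 12.6 CPM in the group means, had log2 fold changes of -0.17 (Col4a3), -0.11 (Col4a4), 0.07 (Col4a5) and 0.06 (Col4a6). The class median was -0.14, with 2 of 6 genes lower at p under 0.05 and 4 of 6 negative.

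The fibrillar class had a median of -0.30, with 7 of 8 genes negative and 4 lower at p under 0.05. Type V collagen sits in the core of type I fibrils and limits their diameter. Its minor chain Col5a3 (ENSMUSG00000004098, chr9:20770050-20815067, minus strand) was at 95.2, 81.1, 73.2 and 93.1 CPM in Littermate and at 46.5 to 71.9 CPM (median 56.9) in Experimental mice. The groups did not overlap, although the highest Experimental mouse was near Littermate 3 (-0.53, SE 0.12, edgeR, adjusted p = 0.0981; 95% interval -0.78 to -0.28). Col5a1 (ENSMUSG00000026837, chr2:27886425-28039514, plus strand) was at 365, 256, 226 and 390 CPM in Littermate and at 197 to 271 CPM (median 212) in Experimental mice, with 5 of 6 below the lowest Littermate mouse (-0.49, SE 0.15, adjusted p = 0.229). Col5a2, the third chain of the family, had group means of 565 ± 79.4 CPM in Littermate and 550 ± 89.7 CPM in Experimental mice (SD, n = 4 and 6; -0.04, adjusted p = 0.932; 95% interval -0.31 to 0.23).

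The type I chains were spread widely among the Littermate mice. Col1a1 was at 2786, 1552, 1539 and 2942 CPM in Littermate 1 to 4 and at 1211 to 1855 CPM (median 1517) in Experimental mice. Littermate 2 and 3 thus lay inside the Experimental range, and the difference (-0.53, SE 0.20, adjusted p = 0.317) was -0.35 without Littermate 4, whereas it was -0.67 without Littermate 2 or without Littermate 3. Col1a2 was at 2248, 1476, 1344 and 2593 CPM in Littermate and at 1214 to 1584 CPM (median 1491) in Experimental mice (-0.41, SE 0.17, adjusted p = 0.354), with the same pair of Littermate mice high. It was -0.22 without Littermate 4 and -0.084 with the Y-linked level as a covariate. Col3a1 (ENSMUSG00000026043, chr1:45311538-45349706, plus strand) was at 6114, 4536, 3478 and 6214 CPM in Littermate and at 3733 to 5502 CPM (median 4490) in Experimental mice. No Experimental mouse lay below the lowest Littermate mouse (-0.17, SE 0.16, adjusted p = 0.733). Of the low fibrillar genes, Col27a1 had a value of -0.20 and Col24a1 of 0.16, the 1 positive value of the class.

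Promoter sequences from RefSeq (GRCm38.p6) are shown for Col18a1 and Col5a3, 2 of the 3 genes with no overlap between groups, and for Col5a1 and Col3a1, a GC-rich and a GC-poor window. The window of the other, Col4a2, lies inside the Col4a1 gene and is not shown. Each window runs 5′ to 3′ upstream of the start, up to 250 bases and without annotated transcript bases. Capitals mark matches, on either strand, to the CCAAT box (CCAAT), the GC box (letters GGGCGG) and the TATA box (letters TATAAA).
Col18a1, chr10:77166549-77166780, minus strand: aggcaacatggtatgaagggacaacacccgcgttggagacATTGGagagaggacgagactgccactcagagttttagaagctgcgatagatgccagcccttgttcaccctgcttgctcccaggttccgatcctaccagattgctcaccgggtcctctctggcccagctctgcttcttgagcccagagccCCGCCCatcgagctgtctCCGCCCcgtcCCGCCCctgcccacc
Col5a3, chr9:20815118-20815317, minus strand: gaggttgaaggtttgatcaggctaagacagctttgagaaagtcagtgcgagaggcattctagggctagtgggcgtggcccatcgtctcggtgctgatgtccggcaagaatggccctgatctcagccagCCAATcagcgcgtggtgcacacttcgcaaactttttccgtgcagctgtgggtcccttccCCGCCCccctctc
Col5a1, chr2:27886175-27886380, plus strand: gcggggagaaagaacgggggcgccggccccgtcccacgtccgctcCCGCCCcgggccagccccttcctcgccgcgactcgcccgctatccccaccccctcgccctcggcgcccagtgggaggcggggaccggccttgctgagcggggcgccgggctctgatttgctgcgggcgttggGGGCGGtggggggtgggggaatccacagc
Col3a1, chr1:45311288-45311537, plus strand: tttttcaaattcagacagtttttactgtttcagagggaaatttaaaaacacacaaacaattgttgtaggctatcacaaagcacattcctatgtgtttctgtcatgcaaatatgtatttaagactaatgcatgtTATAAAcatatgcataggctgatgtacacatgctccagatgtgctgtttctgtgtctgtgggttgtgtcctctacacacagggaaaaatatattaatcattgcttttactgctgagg

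The Col18a1 window shown has 60.8% GC, with 3 GC box matches and 1 CCAAT match. Another Col18a1 window, not shown and taken as the full 250 bases, has 57.6% GC and 0 matches to any of the motifs. The Col5a3 window has 1 GC box match, 1 CCAAT match and 0 TATA box matches, and the Col5a1 window has 77.7% GC with 2 GC box matches. The Col3a1 window has 35.2% GC and 1 TATA box match. The shares that follow are over full windows of 250 bases, with any annotated transcript bases kept, unlike the windows shown. Over the 33 windows of the 31 collagen genes with an entry, the GC box was found in 57.6%, the CCAAT box in 33.3% and the TATA box in 12.1%. The shares over all 32851 windows were 32.7%, 33.8% and 12.4%, and the median GC content was 59.2% in the collagen and 52.4% in all windows. A match describes the sequence only.

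Type VI collagen forms beaded filaments around cells. Col6a1 (ENSMUSG00000001119, chr10:76708792-76726168), the highest gene of the class, was at 690, 524, 465 and 651 CPM in Littermate and at 450 to 588 CPM (median 484) in Experimental mice, with overlap (-0.20, SE 0.12, adjusted p = 0.530). Col6a2 was the 1 gene of the class lower at p under 0.05 (-0.39, adjusted p = 0.2999), with means of 419 ± 101 CPM over the 4 Littermate and 320 ± 40.3 CPM over the 6 Experimental mice (SD). Col6a3 was at -0.23, Col6a4 at -0.12 and Col6a6 at 0.08. Col6a5 had the highest log2 fold change of all 36 genes, 0.45, with a 95% interval of -0.24 to 1.14 (adjusted p = 0.609). Its Littermate values were 20.1, 7.55, 24.6 and 19.8 CPM, so that Littermate 2 stood low, and the Experimental values ran from 16.5 to 32.6 CPM (median 23.8). Without Littermate 2 it was at 0.20, below Col22a1 at 0.26. The class median was -0.16.

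Of the FACIT collagens, Col16a1 (ENSMUSG00000040690, chr4:130047840-130099283) was at 180, 202, 140 and 199 CPM in Littermate and at 128 to 160 CPM (median 145) in Experimental mice, and the groups overlapped through Littermate 3 alone (-0.31, SE 0.10, adjusted p = 0.245). Col12a1 (ENSMUSG00000032332, chr9:79598991-79718831), the highest of the class per length, was at 474, 366, 338 and 475 CPM in Littermate mice. In Experimental mice it ran from 231 to 524 CPM (median 311), with Experimental 6 above every Littermate mouse and the other 5 below every one (-0.34, SE 0.20, adjusted p = 0.558). Without Experimental 6 the value was -0.53, still not past the threshold. Col14a1 was at 0.15, Col22a1 at 0.06 and Col20a1 at -0.22, and the class median was -0.22.

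Col23a1 (ENSMUSG00000063564, chr11:51289920-51583918), a transmembrane collagen, was at 71.4, 77.7, 60.4 and 89.8 CPM in Littermate and at 44.3 to 66.4 CPM (median 52.3) in Experimental mice, where 4 of 6 lay below all Littermate mice (-0.47, SE 0.14, adjusted p = 0.221). Col17a1 (ENSMUSG00000025064, chr19:47646344-47692094), the hemidesmosomal chain of basal keratinocytes, was at 1424, 977, 1115 and 1239 CPM in Littermate and at 974 to 1293 CPM (median 1118) in Experimental mice, with nearly complete overlap (-0.07, SE 0.11, adjusted p = 0.852). Col13a1 was at -0.27 and Col25a1 at -0.47, with group means of 4.77 to 6.54 CPM for both genes. The class median was -0.37, with 4 of 4 negative, and was -0.20 without Littermate 2 and -0.18 with the Y-linked level as a covariate.

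Among the remaining classes, Col7a1 (ENSMUSG00000025650, chr9:108953586-108984875), which forms the anchoring fibrils under the epidermis, was at 154, 129, 127 and 143 CPM in Littermate and at 107 to 139 CPM (median 126) in Experimental mice (-0.15, SE 0.08, adjusted p = 0.517). Col8a1 (ENSMUSG00000068196, chr16:57624258-57754737), a network collagen of vessels, was at 229, 389, 174 and 172 CPM in Littermate, with Littermate 2 high, and at 142 to 302 CPM (median 227) in Experimental mice (-0.11, SE 0.26, adjusted p = 0.907). Col8a2 was at -0.05 and Col10a1 at 0.01. Col28a1 (ENSMUSG00000068794, chr6:7997808-8192617), which is known from peripheral nerve, was at 12.0, 13.9, 9.24 and 8.80 CPM in Littermate and at 6.61 to 9.77 CPM (median 8.85) in Experimental mice (-0.35, SE 0.14, adjusted p = 0.356).

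**Figure D3:**
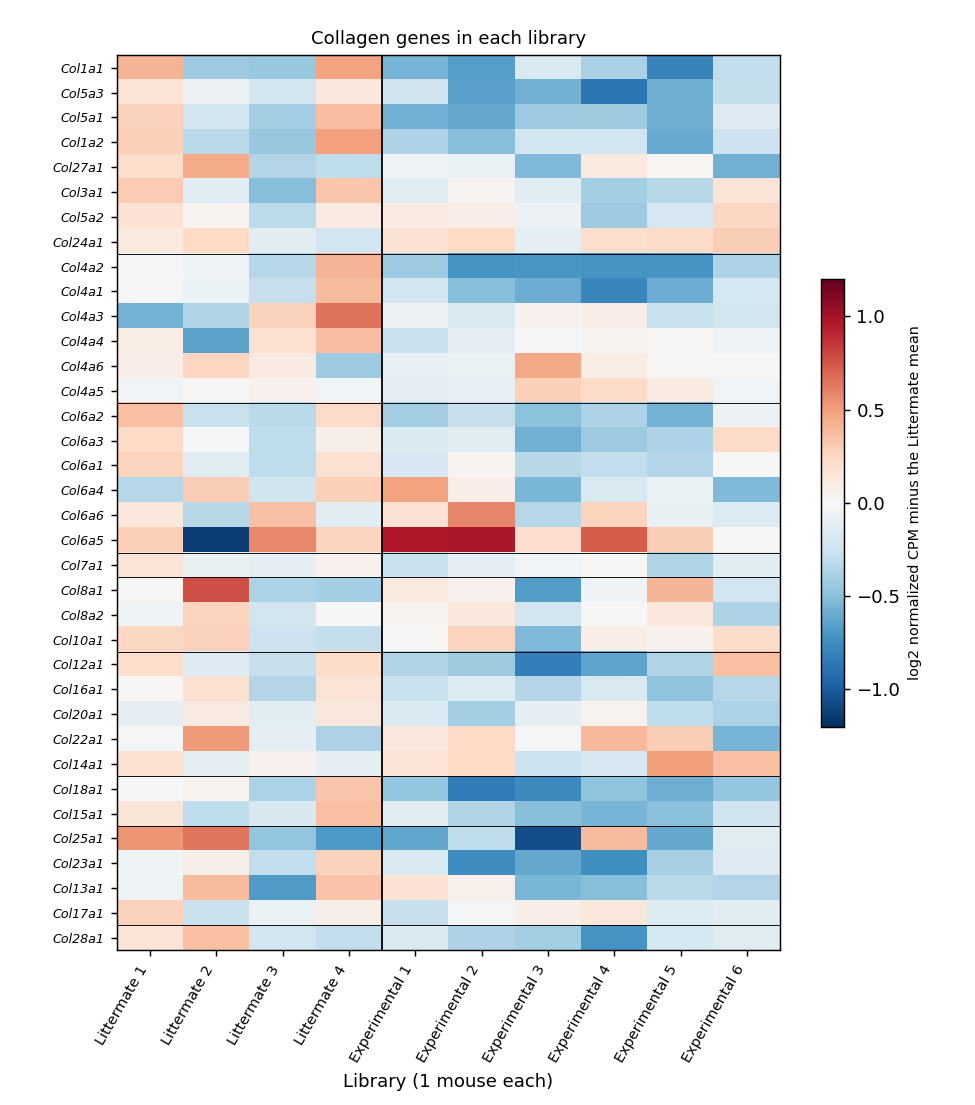
Log2 normalized CPM of each tested collagen gene minus its Littermate mean, in each of the 10 libraries (1 mouse each), with classes separated by lines. Littermate 1 and 4 are high for Col1a1 and Col1a2, Littermate 2 is low for Col6a5, and Experimental 6 is high for Col12a1.

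Chains that assemble together were compared within each library as the ratio of their counts per kilobase, which needs no scaling between libraries. Such a ratio does not remove a difference in GC content between its chains, and log2 fold change fell with GC content (below). Of 9 ratios none passed an exact permutation test over the 210 splits of 10 libraries into 4 and 6 after adjustment over the 9 (smallest possible p 0.00476). The Col1a1/Col1a2 ratio was 2.11 ± 0.14 (SD, n = 4) in Littermate and 1.95 ± 0.13 (SD, n = 6) in Experimental mice (exact p = 0.0762, adjusted 0.146). The type I trimer holds 2 of the former chain for each of the latter, but the level of this ratio depends on the lengths used. These count all annotated exon bases, 6563 for Col1a1 and 12136 for Col1a2, while total counts were 331757 and 300775. The level is therefore no measure of chain stoichiometry. Division by length does not alter the log2 difference between groups. Col6a1/Col6a2 was 2.67 ± 0.19 and 3.01 ± 0.19 (exact p = 0.0286, adjusted 0.146), the lowest p of the 9. Col4a1/Col4a2 was 1.57 ± 0.05 and 1.71 ± 0.12 (exact p = 0.0810, adjusted 0.146), Col5a1/Col5a2 0.613 ± 0.101 and 0.460 ± 0.086 (exact p = 0.0524, adjusted 0.146), and Col3a1/Col1a1 1.59 ± 0.25 and 2.02 ± 0.37 (exact p = 0.0524, adjusted 0.146). Without Experimental 4, Col5a1/Col5a2 and Col4a1/Col4a2 passed, at log2 differences of -0.50 and 0.16 (exact, adjusted p = 0.0357). In both ratios the other 5 Experimental mice lay apart from all Littermate mice, so leaving out Experimental 4 separated the groups fully. Each ratio passed in 1 of 12 alternatives. In both, as in Col1a1/Col1a2 and Col3a1/Col1a1, the chain with more GC had the lower relative level in Experimental mice. The same held in Col5a3/Col5a1 and Col4a5/Col4a6, and the reverse in Col6a1/Col6a2, Col4a3/Col4a4 and Col6a3/Col6a1. The part of GC content in the ratios was not tested. Col5a3/Col5a1, Col4a3/Col4a4, Col4a5/Col4a6 and Col6a3/Col6a1 differed by -0.07, -0.04, 0.00 and -0.05 on the log2 scale, with exact p of 0.652, 0.871, 0.990 and 0.619.

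**Figure D4:**
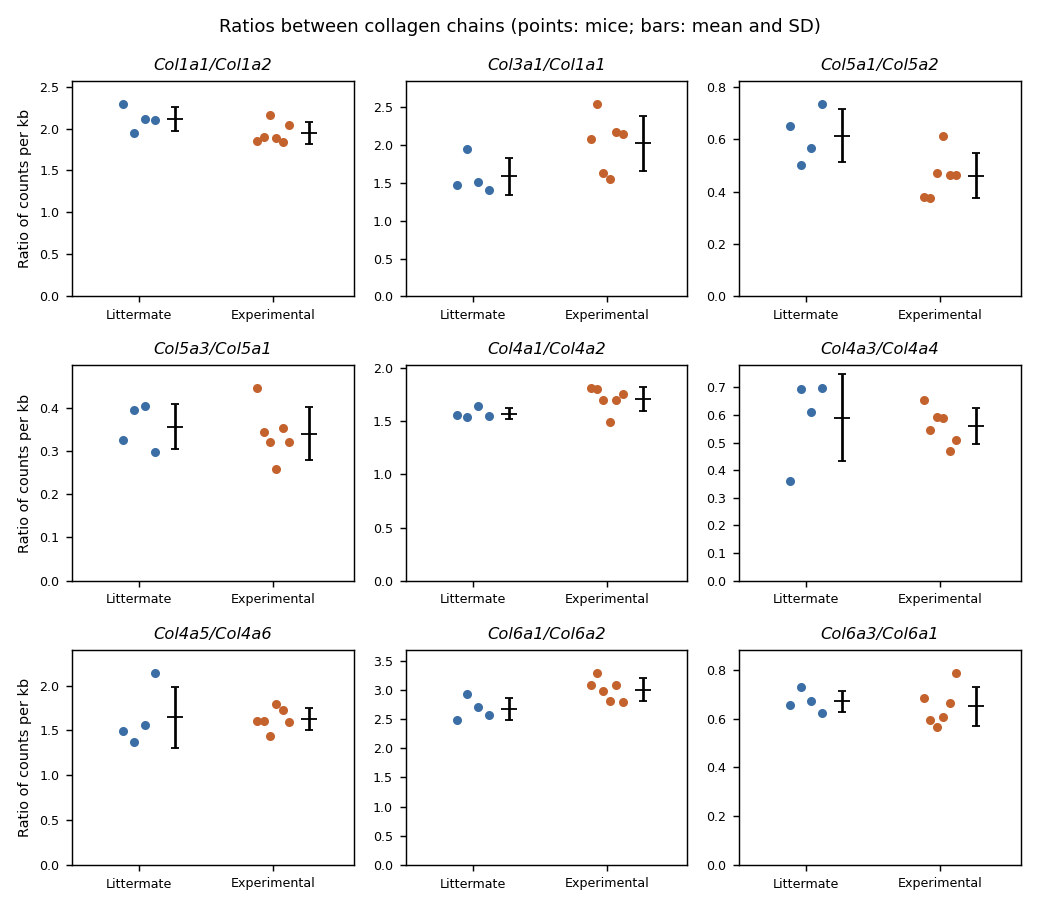
Ratio of counts per kilobase for 9 pairs of collagen chains; points are mice, with the mean and SD beside each group (Littermate n = 4, Experimental n = 6), and axes start at 0. The groups overlap in each of the 9 panels.

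GC content moved with the differences. Over the 36 collagen genes, GC content of the longest transcript and log2 fold change had a Pearson r of -0.48, given as a description across genes that share libraries, and over all genes r was -0.30. All 10 collagen genes with at least 58% GC were negative, 6 of them lower at p under 0.05, with a median of -0.40, while 24.1% of all genes in that band were lower at p under 0.05 and their median was -0.13. Of the 14 genes between 52% and 58% GC, 5 were lower at p under 0.05 (12.9% of all genes in the band), and of the 12 below 52% only Col28a1 was (3.55%). After a per-library GC correction the collagen median was -0.14, and Col18a1, Col4a2 and Col5a3 were at -0.46, -0.46 and -0.35, with 0 collagen calls (0.0239% of all genes called). With the Y-linked level as a covariate the median was -0.10, and the same genes were at -0.44, -0.39 and -0.42, again with 0 collagen calls (0.0119% of all genes). That level ran higher in Experimental libraries (6.11 to 6.36) than in Littermate libraries (5.82 to 6.18), so the covariate can take up part of the group difference.

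**Figure D5:**
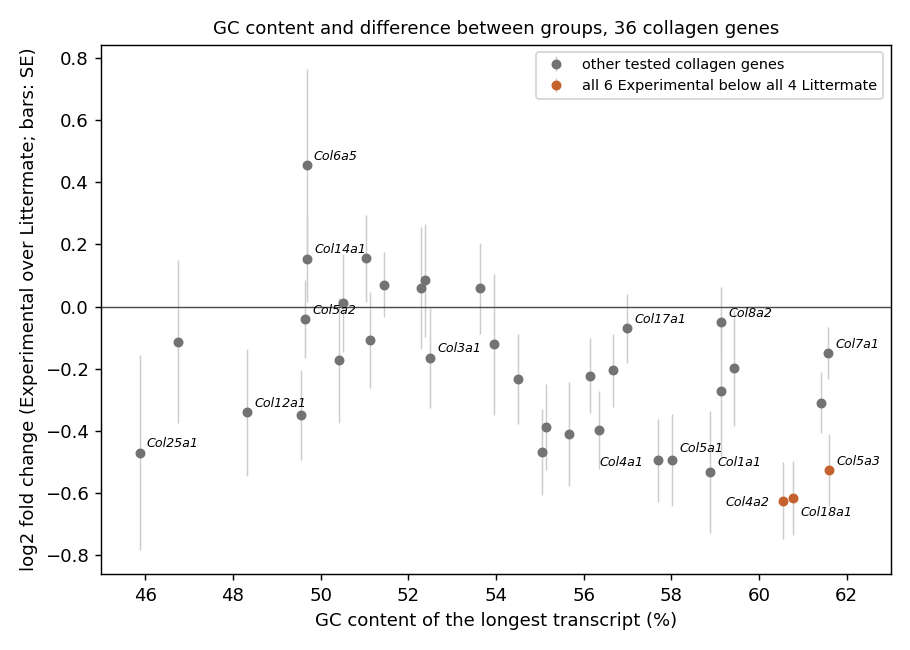
GC content of the longest transcript (percent) against log2 fold change, Experimental over Littermate, for the 36 tested collagen genes; bars are SE and orange points are genes in which all 6 Experimental mice lay below all 4 Littermate mice. The 10 genes with at least 58% GC all lie below 0, and those below 52% lie on both sides.

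Collagen chains are hydroxylated, folded and glycosylated in the endoplasmic reticulum, trimmed by proteases outside the cell, and cross-linked by lysyl oxidases. Of 22 synthesis and folding genes 0 passed the test, with 3 lower and 1 higher at p under 0.05 and a median of -0.11. Over all genes 8.1% were lower and 3.65% higher at that p, the shares to set beside this and the lists below. Creb3l1, a membrane-bound transcription factor that acts on collagen genes, was at 17.6, 6.01, 11.6 and 15.4 CPM in Littermate and at 5.51 to 8.26 CPM (median 6.63) in Experimental mice (-0.88, SE 0.24, edgeR, adjusted p = 0.186), where Littermate 2 lay within the Experimental range. Tmem38b, a channel of the endoplasmic reticulum, was at -0.41 (adjusted p = 0.2999). Of the 13 tested cleavage and cross-linking genes 0 passed, with 5 lower and 1 higher at p under 0.05 and a median of -0.14. Loxl1, a lysyl oxidase known from elastic fibres, was at 68.5, 42.4, 56.9 and 92.8 CPM in Littermate and at 37.7 to 56.2 CPM (median 38.8) in Experimental mice (-0.65, SE 0.19, adjusted p = 0.235), and Adamts14, an aminoprocollagen peptidase, was at -0.27 (adjusted p = 0.317).

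Of 15 basement membrane partners 0 passed the test, 6 were lower and 0 higher at p under 0.05, 13 were negative, and the median was -0.19. Over all genes 8.1% were lower at that p and 50.4% were negative. Hspg2, which encodes perlecan, was at 494, 425, 452 and 712 CPM in Littermate and at 277 to 404 CPM (median 320) in Experimental mice, without overlap (-0.65, SE 0.15, edgeR, adjusted p = 0.118). All Experimental mice lay below all Littermate mice in 1.35% of all genes. Lamb2, a laminin chain, was at -0.24 (adjusted p = 0.340). Of 16 proteins that bind fibrils 0 passed, with 3 lower at p under 0.05 and a median of -0.08, among them Ecm1 (-0.44, adjusted p = 0.130) and Prelp (-0.46, adjusted p = 0.212). Of 12 collagen receptors 0 passed, with 1 lower at p under 0.05, Cspg4 (NG2, a proteoglycan of pericytes that binds type VI collagen; -0.45, adjusted p = 0.216), and the collagen-binding kinase Ddr1 was at -0.16 (adjusted p = 0.427).

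Of 8 tested degradation genes 0 passed, and 1 was lower and 1 higher at p under 0.05. The higher gene was Mmp13, the main interstitial collagenase of the mouse, at 32.0, 38.4, 20.05 and 16.7 CPM in Littermate and at 49.4 to 81.8 CPM (median 64.6) in Experimental mice. Every Experimental mouse lay above every Littermate mouse (1.26, SE 0.24, edgeR, adjusted p = 0.0895), which held for 0.761% of all genes. The lower gene was Mmp14, a membrane-bound collagenase (-0.38, adjusted p = 0.419). Of 12 genes of TGF-beta signalling, a main inducer of collagen transcription, 0 passed and 3 were lower at p under 0.05. Smad7, an inhibitor of the pathway, was at 21.8 to 24.0 CPM in Littermate and at 16.3 to 19.9 CPM in Experimental mice, without overlap (-0.33, SE 0.08, edgeR, adjusted p = 0.121). Separation in that direction held for 1.35% of all genes. The ligand Tgfb1 was at -0.54 (edgeR, adjusted p = 0.253).

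The 6 cartilage collagens that were left out were all negative (50.4% of all genes were), with a median of -0.18 and 0 calls. Col2a1, the main chain of cartilage, was at -0.95 (SE 0.30, edgeR, adjusted p = 0.255) and Col9a3 at -0.19 (adjusted p = 0.824). Mitochondrially encoded and immediate early genes moved in the same direction as the collagen genes. Whether they reflect RNA handling or the tissue itself was not tested. The size of the difference varied within both lists, with small values for mt-Co1 (-0.14), Junb (-0.04) and Ier2 (-0.06). Of 13 mitochondrially encoded genes, 5 were listed at 0 in every library, and the summed level of the others was 5527 to 7565 CPM in Littermate and 4824 to 6109 CPM in Experimental libraries, and the 7 tested had a median of -0.67, with mt-Nd5 at -0.86 and mt-Cytb at -0.63 (adjusted p = 0.0834 for both). The 8 immediate early genes were all negative, with a median of -0.40, Jun at -0.24 (adjusted p = 0.145) and Fosb at -0.76 (adjusted p = 0.248). Among the Y-linked genes, Kdm5d was at 0.17 (adjusted p = 0.353) and Eif2s3y at 0.20 (adjusted p = 0.454). The part of these in the collagen values was not tested, beyond the Y-linked covariate above and the collagen share without mitochondrially encoded counts, which differed by -0.26 percentage points.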

How the data were processed

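RNA of whole ear from 10 mice, 1 library each, was depleted of ribosomal RNA, primed with random hexamers and sequenced as single reads of 50 bases, per the labels' protocols. The protocol names no strand marking and the strand setting of the counting is not stated, so how reads of overlapping genes were assigned is not known. The highest exon overlap among the collagen genes was 5.65%, in Col4a3. Per the submitters' processing notes, the genome was mm10 and the tools were STAR 2.0.4b, featureCounts 1.4.5 and Subread. The annotation release is not given in the sources. The authors deposited for each of 41388 genes a read count, a CPM (counts scaled to a library total of 1000000) and an RPKM (CPM per kilobase), per the file headers. Only the counts entered the tests. Symbols were matched to 97.3% of the identifiers with GENCODE M21, which also gave GC content and exons. Lengths and coordinates are those of the files.

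Genes were tested with edgeR 4.0.16 in R 4.3.3 (TMM, filterByExpr by group, robust quasi-likelihood test, two-sided, group as the only term) on all 10 libraries, with Benjamini-Hochberg adjustment over 16830 genes and a threshold of 0.05. TMM factors ran from 0.984 to 1.02. In the deepest library 3 counts equal 0.0715 CPM and in the shallowest 0.260 CPM. Genes varied between mice with a common biological coefficient of 12.8%. Principal components used the 500 most variable genes. The labels give no litter, cage or batch, so p-values measure the spread between these mice. The steps were tested on simulated data made from these libraries (16654 genes). There edgeR recovered 50.5% of genes changed 1.5-fold and 82.7% of those changed 2-fold, and 4 of 134 calls were false. The simulated noise was independent between genes, and no simulated library was made to stand apart. The data themselves gave 3 calls, so these rates do not measure the power of the test on the data.

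The members and gene lists were chosen with earlier results of these data known. The text gives the value of each Littermate library and the lowest, median and highest Experimental value for the 8 collagen genes with the lowest p and for the highest gene per length of each class, and names from each other list, cell type markers excepted, the 2 genes of lowest p, with Mmp13 always. Col1a1, Col1a2 and Col6a5, the GC bands, and the promoters shown were singled out after their values were seen. Alternatives were DESeq2 size factors and upper-quartile factors, no filter, at least 1 CPM in 4 libraries, DESeq2 1.42.0, limma 3.58.1 voom with and without quality weights, the replicate number as a block, the Y-linked level as a covariate, a lowess GC correction per library (span 0.3), and each library left out.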

Additional observations from a re-analysis of the deposited data

Results flagged for a closer look

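In 96 groups of library values, 5 held 1 library whose gap to the nearest other exceeded Dixon's 95% critical value for its group size, where chance gives about 1 in 20. Experimental 6 stood high for Col12a1, at 524 CPM against 231 to 319 in the other 5 Experimental libraries, and for Col5a1, at 271 CPM against 197 to 225. Experimental 3 stood high for Col4a6, at 12.0 CPM against 8.18 to 9.31, and low for Col24a1, at 3.75 CPM against 4.54 to 4.95. In Experimental 4 the Col4a1/Col4a2 ratio was 1.49, against 1.70 to 1.81 in the others.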

How the results depend on the processing

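The median over the collagen genes kept its sign in each of 21 alternatives (-0.30 to -0.10), as did the fibrillar, FACIT, multiplexin and transmembrane medians. Among Col18a1, Col4a2, Col5a3, Col4a1 and Col5a1 no value changed sign in any of them. Collagen calls numbered 1 without a filter (Col18a1, all genes 78), 4 with DESeq2 (all genes 227), 0 with voom weights (all genes 57) and 7 without Littermate 2 and Experimental 6 (all genes 563). Leaving out 1 library gave 0 to 2 collagen calls and 3 to 343 calls in all. Deviations of same-numbered mice from their group means correlated at 0.03, -0.02, 0.09 and -0.02, and only number 3 correlated best with its own number. What a true pair would give is not known, so these values do not settle whether the replicate numbers pair the mice. With the number as a replicate block, 1 collagen gene (Col18a1) and 67 genes passed, and Col14a1 was at -0.013 and Col10a1 at -0.049. With the Y-linked covariate the beaded filament median was 0.074 and the multiplexin median -0.27, with Col3a1 at 0.060, Col5a2 at 0.051, Col10a1 at -0.0052, Col17a1 at 0.0024, Col6a4 at 0.17, Col4a3 at 0.12, Col4a4 at 0.054, Col4a5 at -0.035, Col4a6 at -0.24, Col22a1 at -0.063 and Eif2s3y at -0.021. With GC correction the anchoring fibril gene Col7a1 was at 0.016, Col17a1 at 0.027 and Col8a2 at 0.074. With voom Col10a1 was at -0.0057, and with quality weights Col6a4 was at 0.0050, Col8a1 at 0.067 and Col8a2 at 0.036. Without Littermate 2 and Experimental 6, Col6a4 was at 0.054, Col27a1 at 0.041, Col8a1 at 0.26, Col8a2 at 0.11, Col9a3 at 0.16, Col4a3/Col4a4 at 0.083 and Col4a5/Col4a6 at -0.072. None of the genes whose sign changed was called in any setting, and the cause was not tested. With 1 library left out, ranges that crossed 0 were -0.068 to 0.12 (Col10a1), -0.15 to 0.035 (Col17a1), -0.041 to 0.26 (Col22a1), -0.33 to 0.087 (Col4a3), -0.28 to 0.027 (Col4a4), -0.055 to 0.15 (Col4a6), -0.13 to 0.034 (Col5a2), -0.036 to 0.22 (Col6a6), -0.24 to 0.22 (Col8a1), -0.11 to 0.046 (Col8a2), -0.34 to 0.078 (Col9a3), -0.26 to 0.059 (Col4a3/Col4a4), -0.078 to 0.14 (Col4a5/Col4a6) and -0.15 to 0.0047 (Col5a3/Col5a1). The basement membrane median ran from -0.29 to -0.014, Col5a1/Col5a2 from -0.51 to -0.33 and Col4a1/Col4a2 from 0.10 to 0.16. Depth limits Col19a1 and Col26a1, with at most 17 reads a library.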
